A study of Mus musculus with 6 samples.

Results

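The simple-epithelium keratins studied here were Krt7, Krt8, Krt18, Krt19, Krt20 and Krt23, 6 of the 26814 gene symbols with counts, chosen by name as keratins of simple and glandular epithelium. They were measured by mRNA sequencing of the top lip of adult female mice on a C57BL/6J background, with 1 library per mouse. The wild type (WT) was represented by 3 mice, and 3 others were knockouts (KO) for the targeted allele Gtf2ird1tm1Hrd. Neither genotype received a treatment. Values are counts of uniquely mapped reads per gene, or CPM (counts scaled to a common library size) after TMM scaling, given as mean ± SD over the 3 libraries of a genotype. A gene was tested where at least 3 libraries reached 1 CPM before TMM scaling. A call required edgeR's quasi-likelihood F test to give a Benjamini-Hochberg adjusted p under 0.05, taken over all 15009 tested genes.

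Keratins form the intermediate filaments of epithelial cells and assemble as pairs of a type I and a type II protein. Krt7 and Krt8 are of type II, and Krt18, Krt19, Krt20 and Krt23 are of type I. Krt8 and Krt18 are the standard pair of simple epithelium, such as gland ducts, gut and liver, and in the skin they also mark Merkel cells, the touch receptor cells of the epidermis, as does Krt20. Krt7 is known from ducts and glands. Krt19 occurs in ducts and in the outer root sheath of hair follicles. The lip surface is a stratified epithelium built mainly of other keratins, with Krt5 and Krt14 in its basal layer and Krt1 and Krt10 above it.

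The 6 libraries held between 20164081 and 29491767 counts. A floor of 3 counts, about the one-sided 95% Poisson limit for an observed 0, equalled between 0.0986 and 0.154 CPM. Gtf2ird1 itself was higher in the libraries labelled KO (144 to 166 CPM) than in the WT (70.2 to 78.2 CPM), so it does not check the labels, and directions are given here for libraries by their label. The authors collected tail biopsies to check the genotypes of the mice. KO3 lay nearer to the WT on the first dimension of the multidimensional scaling plot (1.14) than KO1 (1.84) and KO2 (1.82). WT1 stood apart in the mucosal keratins, with 2805 CPM of Krt13 and 1987 CPM of Krt4, where the other 5 libraries had between 20.1 and 111 CPM of Krt13 and between 9.40 and 116 CPM of Krt4. Keratinocyte genes defined the tissue as labelled, with 3681 ± 145 CPM of Krt14 and 8715 ± 968 CPM of Krt10 in the WT. Of the salivary secretory genes, Bpifa1, Bpifa2, Smr3a and Ltf had no count in any WT library, while Car6 had 46.2 to 52.8 CPM, most of the 52.3 to 58.2 CPM summed over that list, and Amy1 had 2.56 to 3.45 CPM.

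Krt7 was the 1 member that changed. It rose 2.67-fold, and neither Krt8 nor Krt18, Krt19 or Krt23 passed the test, while Krt20 was below the level at which genes were tested. In whole lip, a change in the number of cells of a type and a change in RNA per cell cannot be told apart. All 6 members had counts in every library. The lengths of their transcripts and their places in GRCm38 come from a GENCODE annotation, and 5 of the 6 had a promoter window from RefSeq (GRCm38.p6), which runs from 250 bases before the start site to 50 after it. The 250 bases before the start site are shown for Krt7, the gene that changed, and for Krt23, the most abundant member, in lower case and read 5′ to 3′ on the strand of the gene. The Krt7 stretch is chr15:101412153-101412402 on the plus strand and the Krt23 stretch is chr11:99493121-99493370 on the minus strand. RefSeq places the start of Krt7 downstream of the start of the GENCODE gene.
Krt7: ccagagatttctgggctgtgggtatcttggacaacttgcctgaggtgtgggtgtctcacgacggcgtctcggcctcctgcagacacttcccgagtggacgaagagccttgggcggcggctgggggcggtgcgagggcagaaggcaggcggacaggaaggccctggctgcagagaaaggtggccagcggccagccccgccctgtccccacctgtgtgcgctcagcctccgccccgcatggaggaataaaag
Krt23: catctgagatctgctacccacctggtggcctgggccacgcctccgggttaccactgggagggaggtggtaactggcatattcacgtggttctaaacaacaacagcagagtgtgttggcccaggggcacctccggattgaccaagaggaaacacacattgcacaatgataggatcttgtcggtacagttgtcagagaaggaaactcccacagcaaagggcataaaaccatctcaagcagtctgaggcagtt

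The windows were searched on both strands for TATAAA (the TATA box), TGANTCA (AP-1 sites) and GGATTA (the core of the site known to be bound by GTF2IRD1). No letters are in capitals above because none of these motifs is in the windows of Krt7 or Krt23, nor in that of Krt18. The GGATTA core was in none of the 5 windows, against 7.06% of all 32851 windows of 300 bases, and TGANTCA was likewise in none, against 7.81% of all windows. TATAAA, in 13.6% of all windows, was found in the window of Krt20, at position -29 from the start site on the gene's strand. In the window of Krt8, matches on both strands overlap and begin at positions -3 and -1, so that they lie across the start site itself. The Krt7 window had the highest GC content of the 5, at 66.3%, above the upper quartile of all windows (61.7%).

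The type II gene Krt7 (chromosome 15, 101411043 to 101430313, plus strand) had 123, 111 and 102 counts in WT1, WT2 and WT3, and 267, 358 and 250 counts in KO1, KO2 and KO3. After scaling these were 4.46, 4.72 and 4.59 CPM in the WT, against 13.7, 11.8 and 11.4 CPM in the libraries labelled KO. The WT libraries were close to each other, and all libraries labelled KO lay well above them. The means were 4.59 ± 0.128 and 12.3 ± 1.202 CPM (n = 3 each), a log2 fold change of 1.42 with a standard error of 0.16 and a 95% interval from 1.04 to 1.80 (edgeR's quasi-likelihood test, adjusted p = 0.00191). Of the 5 tested members 1, Krt7, was called higher and 0 lower, where the same test called 6.47% of all tested genes, 4.38% higher and 2.09% lower. Leaving out any 1 library gave Krt7 a log2 fold change from 1.40 to 1.51 that passed the test each time, with adjusted p-values from 0.000746 to 0.0187. It was 1.47 without KO3 and 1.40 without WT1, the libraries that stood apart. Krt7 overlaps the antisense gene Gm671 by 77 exonic bases at its 5′ end, and the strand setting of the counting is not stated, so reads of that stretch cannot be assigned to either gene.

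**Figure D1:**
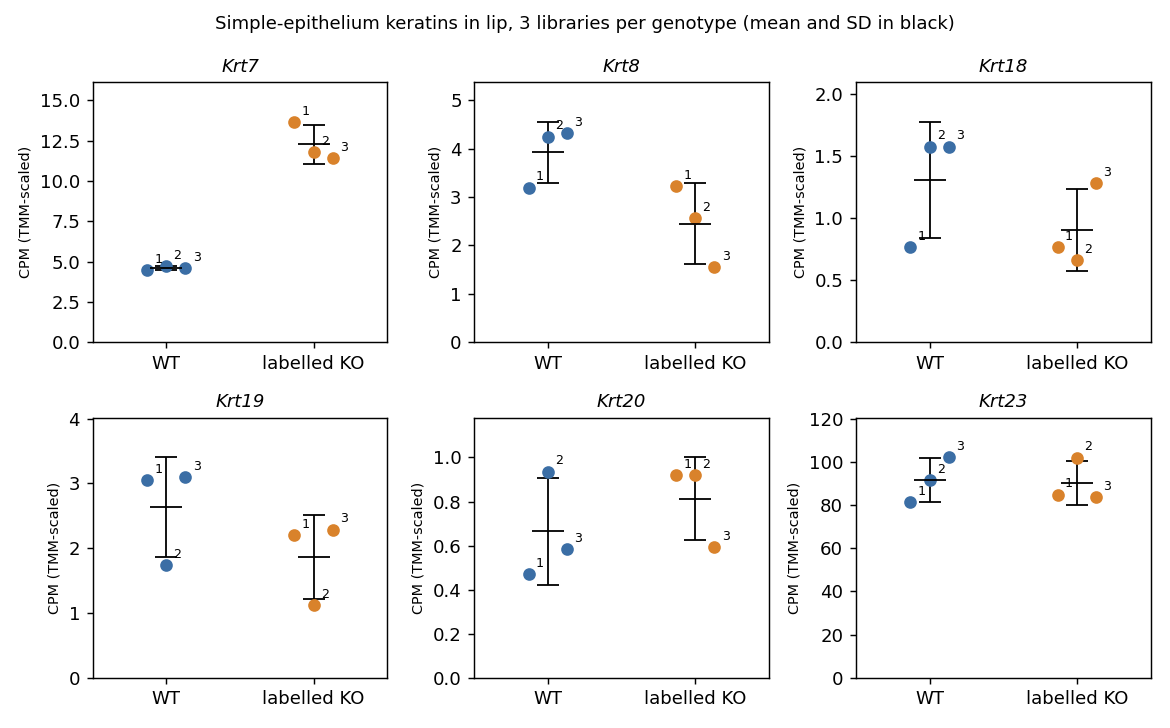
CPM (vertical axes, linear, from 0) of the 6 keratins in each library, numbered by replicate, for the WT (blue) and the libraries labelled KO (orange), with the mean and SD in black. The genotypes are separate for Krt7, at 4.46 to 4.72 against 11.4 to 13.7 CPM, and overlap for the other members.

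Krt8 (chromosome 15, 101996698 to 102004482, minus strand), the type II partner of Krt18, had 88, 100 and 96 counts in the WT and 63, 78 and 34 counts in KO1, KO2 and KO3. These were 3.19, 4.25 and 4.32 CPM in the WT, against 3.22, 2.56 and 1.56 CPM in the libraries labelled KO. KO3 was the lowest, and KO1 lay level with WT1, so that the genotypes overlapped. The log2 fold change was -0.68 with a standard error of 0.29 and a 95% interval from -1.35 to -0.01, and it did not pass the test (adjusted p = 0.164 in edgeR's quasi-likelihood test). Without KO3 it was -0.44. A processed pseudogene, Krt8-ps, matches Krt8 with 98.6% identity over 941 bases in the reference transcripts, and reads that map equally well to both would not have been counted as unique. Krt8 also overlaps the noncoding gene Gm36026 on the other strand by 101 exonic bases.

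Krt18 (chromosome 15, 102028180 to 102032027, plus strand), the type I partner, lies 23698 bases from Krt8 and is transcribed from the other strand. Its counts were low, at 21, 37 and 35 in the WT and 15, 20 and 28 in the libraries labelled KO. In CPM these were 0.762, 1.57 and 1.57 against 0.768, 0.658 and 1.28. WT1 was as low as KO1, and KO3 was the highest of the libraries labelled KO. The log2 fold change was -0.53 with a standard error of 0.40 and a 95% interval from -1.44 to 0.38 (adjusted p = 0.391 in edgeR's quasi-likelihood test). It was -0.82 without WT1 and -0.27 without KO2. The 15 counts of KO1 have an exact Poisson interval of 8.40 to 24.7, which covers counting error only, and the interval of the fold change includes both 0 and the value of Krt8.

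The ratio of Krt18 to Krt8 reads per kilobase was 0.325 in WT1, 0.504 in WT2 and 0.497 in WT3, and 0.324 in KO1, 0.349 in KO2 and 1.12 in KO3. Krt8 exceeded Krt18 in 5 of the 6 libraries, and the exception was KO3. On the log2 scale the ratio was -1.21 ± 0.36 in the WT and -0.99 ± 1.004 in the libraries labelled KO, a difference of 0.21 that did not exceed the SD of the WT or of the libraries labelled KO (p = 0.9 by a two-sided exact permutation test, where 0.1 is the smallest p that 3 libraries against 3 allow). Without KO3 the difference turned to -0.36 (exact permutation p = 0.3).

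Krt19 (chromosome 11, 100140810 to 100148665, minus strand), the smallest type I keratin, had 84, 41 and 69 counts in the WT and 43, 34 and 50 in the libraries labelled KO. These were 3.05, 1.74 and 3.10 CPM against 2.20, 1.12 and 2.29 CPM. In both genotypes the mouse numbered 2 was the lowest, and WT2 lay below KO1 and KO3. The log2 fold change was -0.52 with a standard error of 0.35 and a 95% interval from -1.32 to 0.29 (adjusted p = 0.349 in edgeR's quasi-likelihood test), and it was -0.17 without KO2.

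Krt20 (chromosome 11, 99428403 to 99438150, minus strand), known from gut epithelium and Merkel cells, had the fewest counts of the 6 in 4 of the libraries, at 13, 22 and 13 in the WT and 18, 28 and 13 in the libraries labelled KO. No library reached 1 CPM, and the means were 0.664 ± 0.242 CPM in the WT, against 0.812 ± 0.188 CPM in the libraries labelled KO. The genotypes overlapped. With no filter on low counts the log2 fold change was 0.36 (adjusted p = 0.583 in edgeR's quasi-likelihood test).

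Krt23 (chromosome 11, 99477974 to 99493137, minus strand), a type I gene 39824 bases from Krt20, was by far the most abundant member, with 1658 to 3101 counts per library. It had 81.5, 91.4 and 102 CPM in the WT, against 84.8, 102 and 83.6 CPM in the libraries labelled KO. The ranges of both genotypes were nearly the same. The log2 fold change was -0.02 with a standard error of 0.14 (adjusted p = 0.923 in edgeR's quasi-likelihood test), and its 95% interval from -0.36 to 0.31 does not include a change of the size seen in Krt7. Its sign turned under DESeq2's size factors, where the value was 0.0034.

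Beside the single call of Krt7, an unadjusted p under 0.05 was reached by 1 member that was higher, Krt7, and by 1 that was lower, Krt8, where 29.6% of all tested genes had such a p, 13.5% higher and 16% lower. edgeR's exact test called 1 member higher, again Krt7, and 0 lower, where it called 14.9% of all tested genes, 7.76% higher and 7.15% lower. DESeq2 and limma-voom called the same gene higher and 0 lower. The genotypes did not overlap in 1 of the 5, against 31.5% of all tested genes (13.5% higher, 18.1% lower). The median log2 fold change of the 5 was -0.52, beside -0.02 over all tested genes. With each library left out, the members' median was -0.40 to -0.17 over the 4 or 5 still tested. Under DESeq2, which tested all 6, it was -0.23.

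**Figure D2:**
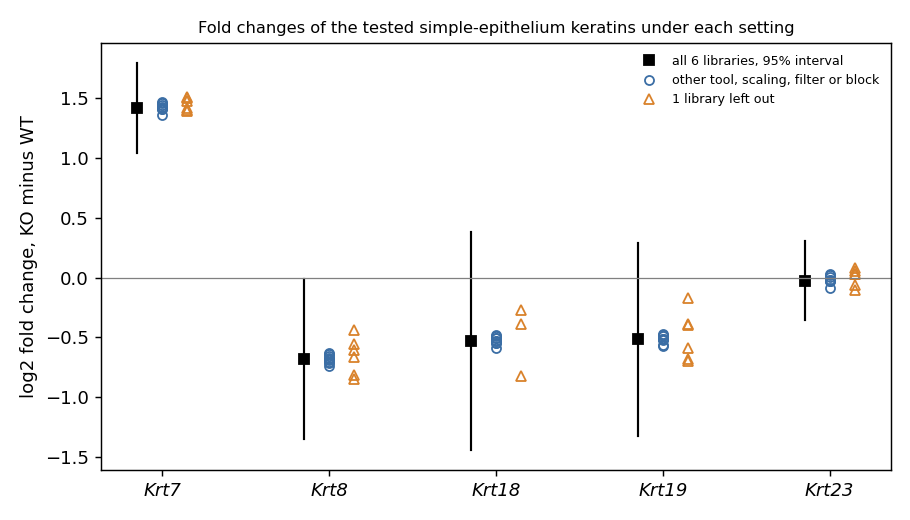
Log2 fold change (vertical axis, KO minus WT) of the 5 tested members with all 6 libraries (black squares, with the 95% interval), with another tool, scaling, filter or block (blue circles), and with 1 library left out (orange triangles). Krt7 stays between 1.36 and 1.51, Krt8 and Krt19 stay below 0, Krt18 does so in the 3 of these fits where it was still tested, and Krt23 lies on both sides of 0.

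Levels of different genes were compared as CPM per kilobase of the principal annotated transcript. In the WT the order was Krt23 (58.6 ± 6.58), Krt8 (2.003 ± 0.322), Krt19 (1.67 ± 0.489), Krt7 (1.12 ± 0.0311), Krt18 (0.907 ± 0.326) and Krt20 (0.345 ± 0.125). Krt23 stood far above the rest. The libraries overlapped between Krt8 and Krt19, between Krt19 and Krt7 and between Krt7 and Krt18, while Krt20 lay below Krt18 in all of them. In the libraries labelled KO the level of Krt7 was 3.00 ± 0.294, second after Krt23 (57.6 ± 6.56) and above Krt8 (1.25 ± 0.429), Krt19 (1.19 ± 0.413), Krt18 (0.628 ± 0.231) and Krt20 (0.421 ± 0.0978). There the libraries of Krt7 lay above those of Krt8, and from Krt8 down each neighbour in the order overlapped the next. The place of Krt7 depends on its length, since the annotation gives it a principal transcript of 4094 bases and 7049 bases of exon in all. With the latter its level was 0.651 in the WT, below that of Krt18, and 1.74 in the libraries labelled KO, still second.

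Among the 51 keratin genes with counts, Krt23 ranked 32 by this level in the WT, and the other members took ranks 44 to 48. The 6 members together made up 0.220% ± 0.0385 of all keratin reads in the WT and 0.187% ± 0.0245 in the libraries labelled KO. Without Krt23 these shares were 0.0275% ± 0.00417 and 0.0314% ± 0.00145. For comparison, Krt14 had 2168 CPM per kilobase in the WT and Krt10 had 4162.

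**Figure D3:**
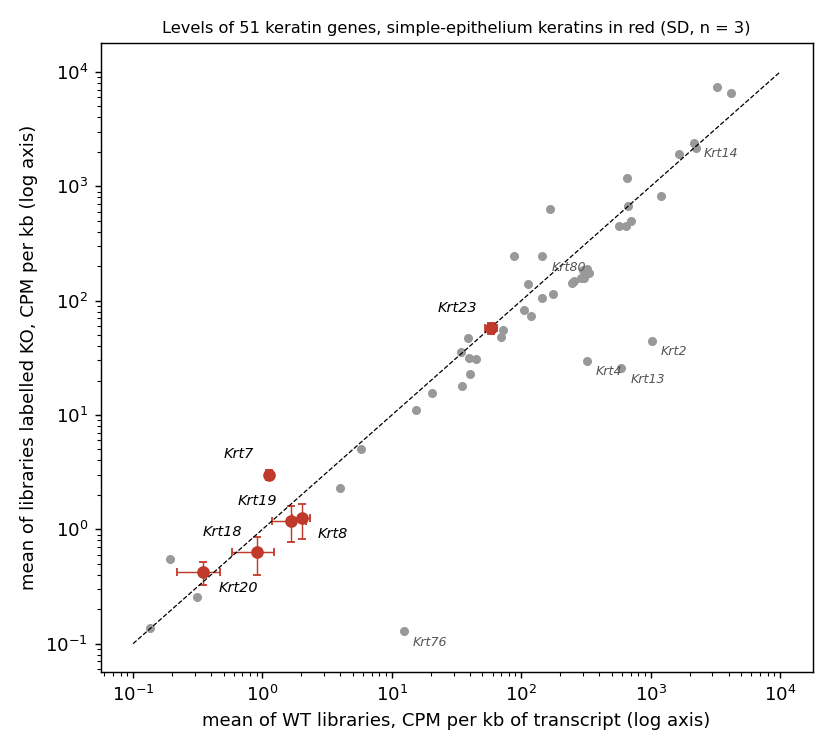
Mean level of 51 keratin genes in the WT (horizontal) and in the libraries labelled KO (vertical), both as CPM per kilobase on log axes, with the simple-epithelium keratins in red with their SD (n = 3) and the other keratins in grey. Krt7 lies above the dashed line of equal levels and Krt23 on it, and Krt2, Krt4, Krt13 and Krt76 lie far below it.

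Of the 45 other keratin genes 41 were tested, and 2 of these rose and 4 fell, with a median log2 fold change of -0.46. At an unadjusted p under 0.05 there were 5 higher and 19 lower, edgeR's exact test called 6 higher and 10 lower, and the genotypes did not overlap in 23 of the 41. The genes called higher by the quasi-likelihood test were Krt80 (log2 fold change 0.76, adjusted p = 0.0390) and Krt16 (1.95, adjusted p = 0.0365). Krt80, a type II keratin of differentiating epithelium, is the nearest tested gene to Krt7 on its left side, 40881 bases away. It had 407 to 480 CPM in the WT, against 619 to 859 CPM in the libraries labelled KO. Its call was lost when any 1 library except KO3 was left out, with log2 fold changes between 0.71 and 0.81 and adjusted p-values up to 0.156, and it was also lost with the replicate block (adjusted p = 0.0588). The call of Krt16, a keratin of wounded and thickened epidermis, was lost without WT2 (adjusted p = 0.0921), WT3 (0.142), KO1 (0.0696) or KO2 (0.0971). On the right side of Krt7 the hair keratins Krt81, Krt86 and Krt83 had log2 fold changes of -0.79, -0.89 and -0.93 and did not pass, with adjusted p-values from 0.0813 to 0.196. Krt7 thus lay between a neighbour that was higher and 3 neighbours that were lower in every library labelled KO than in every WT library. Around Krt8 and Krt18, the type II genes Krt79 (0.01) and Krt78 (0.30) and the translation factor gene Eif4b (0.29, higher in every library labelled KO than in every WT library) did not pass either, and nor did Krt4 (-3.43, overlapping, with WT1 far above the rest), Spryd3 (-0.05) or Igfbp6 (-0.75, adjusted p = 0.0830), which was lower in every library labelled KO than in every WT library.

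The genes whose pattern over the 6 libraries was most like that of each member were found by the root mean square difference between log2 CPM profiles, each centred on its mean. For Krt7 they were Xpnpep1 (0.07), Galnt3 (0.09) and Ephb1 (0.10), where the median difference of tested genes from Krt7 was 0.75. For Krt8 the nearest were A330023F24Rik (0.08), Gucy1a2 (0.12) and Gm12963 (0.12), for Krt18 Cyp24a1 (0.10), Angpt4 (0.13) and Fez1 (0.14), and for Krt19 Phpt1 (0.08), Pigz (0.11) and Gm10039 (0.15). For Krt23, whose profile was nearly flat, they were Shroom2 (0.04), Ncoa1 (0.05) and Prr16 (0.05). No member was among the 3 nearest genes of another. Krt8 and Krt18 differed from each other by 0.59, more than the median difference of tested genes from Krt8 (0.54) or from Krt18 (0.53). With 34 to 100 counts of Krt8 and 15 to 37 of Krt18 per library, counting error adds to this difference. Its part was not measured, so the value does not show whether the 2 genes vary together.

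Other genes of simple and glandular epithelium were read from a list of 19, of which 13 were tested. One of them rose and 0 fell, with 3 higher and 5 lower at an unadjusted p under 0.05. edgeR's exact test called 2 higher and 0 lower, DESeq2 called 2 higher and 1 lower, and limma-voom 1 higher and 0 lower. The riser was Aqp5, the water channel of salivary, lacrimal and sweat glands, with 12.0, 8.38 and 11.4 CPM in the WT, against 85.8, 67.6 and 52.6 CPM in the libraries labelled KO. All libraries labelled KO lay far above the WT. Its log2 fold change was 2.69 with a standard error of 0.23 (edgeR's quasi-likelihood test, adjusted p = 0.000349), and between 2.57 and 2.86 with each library left out. The epithelial transcription factor genes Ehf (log2 fold change 1.22, adjusted p = 0.0723) and Elf3 (0.79, adjusted p = 0.173) did not pass, and neither did Elf5, a factor of glandular epithelium (-0.54, adjusted p = 0.0590), or Cldn4, a claudin of tight junctions (-0.46, adjusted p = 0.0765). Epcam, an adhesion molecule of epithelia, had a log2 fold change of -0.08. The median over the 13 was -0.26, with 4 log2 fold changes above 0 and 9 below. The genotypes did not overlap in 8 of the 13, against 31.5% of all tested genes. Cldn3 (-0.77), Cldn10 (-0.63), Muc1 (-0.58) and Prom1 (-0.56) were among those lower in every library labelled KO than in every WT library, and they did not pass. Without KO3, the list had 3 genes higher and 4 lower, where that fit called 2496 of 14802 tested genes higher and 2395 lower.

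**Figure D4:**
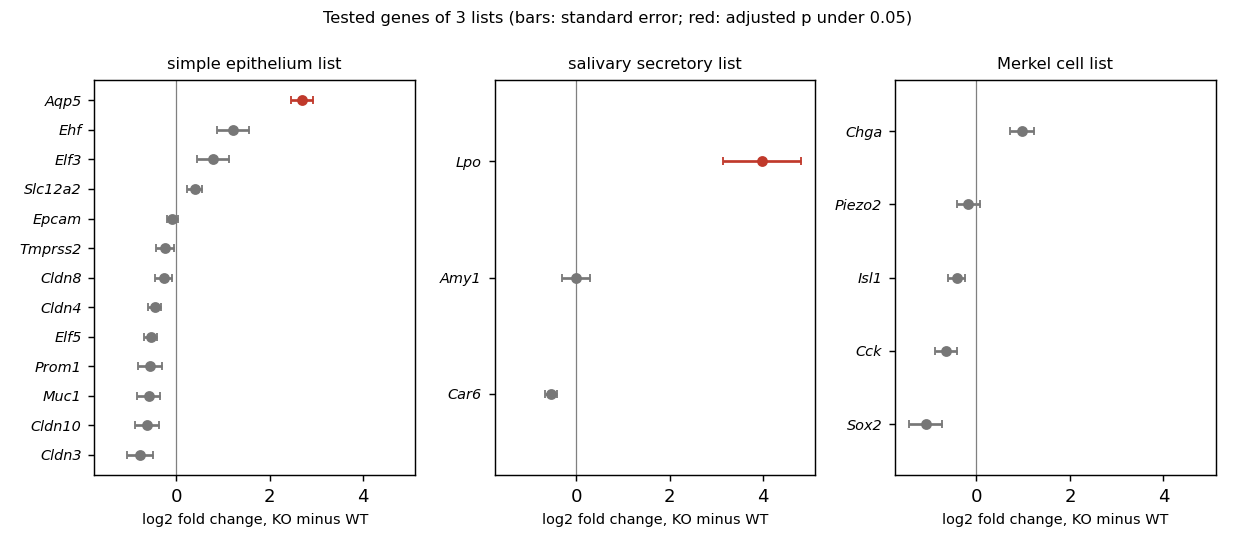
Log2 fold change (horizontal axes, KO minus WT) with its standard error for the tested genes of the lists for simple epithelium, salivary secretion and Merkel cells, in red where the adjusted p was under 0.05. Aqp5 at 2.69 and Lpo at 3.97 are the called genes.

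The list of salivary secretory genes had 14 names, of which 10 had rows and 3 were tested. The quasi-likelihood test called 1 higher, Lpo, and 0 lower, with 1 lower at an unadjusted p under 0.05. edgeR's exact test and DESeq2 each called 1 higher and 1 lower, as did the quasi-likelihood test with upper-quartile scaling or without KO3, and limma-voom called 0. Lpo, the secreted lactoperoxidase, had 1.05, 0.850 and 0.630 CPM in the WT, against 31.0, 5.79 and 3.80 CPM in the libraries labelled KO. KO1 was far above the rest, and no library labelled KO overlapped the WT. Its log2 fold change was 3.97 with a standard error of 0.83 (edgeR's quasi-likelihood test, adjusted p = 0.0317) and 2.56 without KO1. The call was lost without WT1 (adjusted p = 0.129), WT2 (0.0888) or WT3 (0.126) and under limma-voom (0.0733). Car6, the secreted carbonic anhydrase, had 46.2 to 52.8 CPM in the WT, against 31.9 to 38.0 CPM in the libraries labelled KO. It was thus lower in every library labelled KO than in every WT library. Its log2 fold change was -0.54 (edgeR's quasi-likelihood test, adjusted p = 0.0532), and that of Amy1, an amylase gene, was -0.01.

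Merkel cells carry Krt8, Krt18 and Krt20, and 11 other genes of these cells were read beside them. All 11 had counts, 5 were tested, and 0 were called in either direction, with 1 higher and 3 lower at an unadjusted p under 0.05. edgeR's exact test called 1 higher and 1 lower, DESeq2 1 higher and 0 lower, and limma-voom 0. Atoh1, the factor that specifies these cells, had 0.476 ± 0.213 CPM in the WT, against 0.381 ± 0.163 CPM in the libraries labelled KO. Sox2 had 4.28, 2.08 and 2.11 CPM in the WT, against 1.02, 1.38 and 1.60 CPM in the libraries labelled KO, with a log2 fold change of -1.08 (edgeR's quasi-likelihood test, adjusted p = 0.0954). By the same test Chga, a protein of secretory granules, had a log2 fold change of 0.97 (adjusted p = 0.0638), Cck, a neuropeptide gene, one of -0.65 (adjusted p = 0.119), Isl1 one of -0.42 (adjusted p = 0.167) and the touch channel gene Piezo2 one of -0.17 (adjusted p = 0.659). The genotypes did not overlap in 4 of the 5, against 31.5% of all tested genes. Sox2, Cck and Isl1 were lower, and Chga higher, in every library labelled KO than in every WT library. Gfi1, which was not tested, was likewise lower, at 0.946 ± 0.26 CPM in the WT against 0.467 ± 0.098 CPM. The summed CPM of the list was 26.3 to 29.2 in the WT and 21.0 to 24.5 in the libraries labelled KO. Without KO3, 1 gene of the list was higher and 2 were lower, beside 2496 higher and 2395 lower among all 14802 genes tested in that fit.

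Proteins linked to keratin filaments, most of them at cell junctions, were read from a list of 12, of which 11 were tested. Dst, a plakin of the hemidesmosome, rose from 458 ± 95.6 to 1185 ± 411 CPM (log2 fold change 1.37, edgeR's quasi-likelihood adjusted p = 0.0343), a call that was lost when any 1 library except KO3 was left out (adjusted p from 0.0816 to 0.144) and with the replicate block (adjusted p = 0.0652). The other ten, Dsp (0.46), Plec (-0.33) and Ppl (0.43) among them, did not pass. Of 8 transcription factor genes of epithelia, 0 were called by the quasi-likelihood test, edgeR's exact test, DESeq2 or limma-voom, with 1 higher at an unadjusted p under 0.05. That gene was Grhl2, at 56.2 ± 0.468 and 70.3 ± 1.41 CPM (log2 fold change 0.32, adjusted p = 0.110).

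Markers of other cells and layers of the lip were read by the same test, as genes called and as summed CPM per library. Krt16 was the 1 of 4 stress keratins called higher (3 by edgeR's exact test, 2 by DESeq2, 2 by limma-voom and 3 with the replicate block), and their sum was 3841 to 5485 in the WT against 5785 to 8827 in the libraries labelled KO. Of the 4 suprabasal keratins 1, Krt2, fell and 0 rose, with 2 higher at an unadjusted p under 0.05, 2 by edgeR's exact test, 2 by DESeq2 and 1 by limma-voom, while their sum, most of it Krt1 and Krt10, was 16960 to 22030 against 25800 to 38970. Of the 8 skeletal muscle genes 2, Tnnt3 (log2 fold change -1.01) and Tnni2 (-1.05), fell (6 by edgeR's exact test, 5 by DESeq2 and 3 by limma-voom), with a sum of 8870 to 11550 against 3848 to 7490. Tagln was the 1 of 4 smooth muscle genes that fell (-0.59), with a sum of 144 to 175 against 93.7 to 134.3, and Fabp4 the 1 of 5 adipocyte genes (-0.65), with a sum of 77.3 to 98.2 against 52.5 to 55.4. The sums of these 5 lists did not overlap between the genotypes. With any 1 library except KO3 left out, or with the replicate block, no skeletal muscle, smooth muscle or adipocyte gene was called, and the call in smooth muscle was also lost under DESeq2's size factors, library size alone and both other filters. The adipocyte call was lost with no filter as well.

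In 5 more lists no gene was called and the sums did not overlap. Beside the Merkel cell list described above, they were the 7 genes of hair follicle stem cells and outer root sheath (562 to 608 CPM in the WT against 327 to 447), the 3 Schwann cell genes (298 to 324 against 156 to 271), the 3 immune genes with rows (34.5 to 40.3 against 41.6 to 46.4) and the 8 epithelial transcription factors (1527 to 1727 against 1825 to 1996). At an unadjusted p under 0.05 there were 5 hair follicle genes and 1 Schwann cell gene that were lower and 1 immune gene and 1 transcription factor gene, Grhl2, that were higher. edgeR's exact test called 3 hair follicle genes and 1 Schwann cell gene lower, DESeq2 called the same numbers and 1 immune gene higher, and limma-voom called 0 in all of these lists and the Merkel cell list. The summed linkers (8259 to 9124 against 9580 to 11890) were also apart.

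The sums overlapped for the 12 sebaceous gland genes (6898 to 8162 against 4901 to 7156), of which 1, Awat1, fell (log2 fold change -1.09, adjusted p = 0.00409), with no call of it without KO2 (adjusted p = 0.0565) and 5 genes of the list lower without KO3. They also overlapped for the 3 basal keratins (9154 to 9888 against 8566 to 10420), of which 0 were called, with 1 lower at an unadjusted p under 0.05 and 0 by edgeR's exact test, DESeq2 or limma-voom. Sums likewise overlapped for the 6 fibroblast genes (6355 to 8325 against 2730 to 6660, median log2 fold change -0.51), the 3 endothelial genes (108.7 to 133.1 against 74.0 to 133.3), the 4 melanocyte genes (14.9 to 22.8 against 14.2 to 19.4) and the 4 mucosal keratins (126 to 5029 against 144 to 414). None of these was called, with 1 endothelial gene and 1 mucosal keratin lower at an unadjusted p under 0.05, and DESeq2 and limma-voom also called 0 while edgeR's exact test called 2 mucosal keratins lower. Without KO3, 3 stress keratins, 1 suprabasal keratin, 1 mucosal keratin and 1 immune gene were higher, and 7 skeletal muscle, 2 smooth muscle, 3 adipocyte, 3 hair follicle, 2 Schwann cell, 3 fibroblast and 2 endothelial genes were lower. Over all 14802 genes tested in that fit, 2496 were higher and 2395 lower. The part of these markers in the Krt7 result was not tested.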

How the data were processed

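RNA from top lip of 3 WT and 3 KO mice was sequenced. The authors used TopHat2 (2.0.8) with Bowtie2 (2.1.0) for alignment to GRCm38, and the deposited values are whole-number counts of reads assigned uniquely to each gene by HTSeq-count, without normalization. Counting mode and strandedness are not given in the sources used here. Titles gave the groups, and nothing was left out.

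Counts were analysed in R 4.3.3 with edgeR 4.0.16: a filter of 1 CPM or more in 3 or more libraries (99.8% or more of each library's counts), TMM factors, estimateDisp, glmQLFit (legacy=FALSE) and glmQLFTest. The study named edgeR's exact test, which was an alternative here beside DESeq2 1.42.0, limma-voom (limma 3.58.1), other scalings, other filters, a replicate block and each library left out. Standard errors and 95% intervals come from the fit, and Poisson intervals cover counting error only. Library totals were 20164081 to 29491767. The fit was tested on simulated counts with 200 changed genes. Lengths and positions are from GENCODE M21, copies from blastn 2.17.0 (at least 95% identity over 100 bases), promoters from RefSeq. Figures used Python 3.11.15 and matplotlib 3.10.9.

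The members and the gene lists were chosen with earlier results of these data known, and the look at neighbouring genes, the counts without KO3 and the repeat fits of Aqp5, Lpo, Dst, Awat1, Krt80 and Krt16 were chosen after seeing the data. The rule for named genes took the members, up to 4 genes of lowest p in each list, other list genes with their values, the 3 genes whose profile (log2 CPM, prior count 2) was nearest to each tested member, other keratins with counts, and Gtf2ird1.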

Additional observations from a re-analysis of the deposited data

How the results depend on the processing

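Krt7 was called higher, and 0 members were called lower, under each of the 9 other settings and in all 6 fits that left out a library. Its log2 fold change was 1.36 to 1.47 over the 9 settings. Krt8 (-0.74 to -0.63), Krt18 (-0.58 to -0.48) and Krt19 (-0.57 to -0.47) kept their sign and did not pass in any of them. Krt18 was below the filter without WT2, WT3 or KO3. Krt23 changed sign, with 0.0194 under DESeq2, 0.0034 under DESeq2's size factors, 0.029 with no filter, and -0.11 to 0.0809 with each library left out. The difference in the log2 ratio of Krt18 to Krt8 ranged from -0.36 to 0.53 when libraries were left out one at a time, with the turn in sign without KO3, and the cause was not tested. As a percent of all reads in place of keratin reads, the summed members differed by 0.000322 points (KO minus WT).

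Over all genes, 657 were called higher and 314 lower. The counts were 1165 and 1073 with edgeR's exact test and 1511 and 898 with DESeq2. The lower genes were 207 with DESeq2's size factors, 204 with no filter and 204 with at least 10 counts in every library. With each library left out there were 208 to 2496 higher and 18 to 2395 lower genes, the most without KO3, and the cause was not tested. Deviations from the group means correlated across genes with r = 0.29 for the mice numbered 2, 0.31 for those numbered 3 and -0.19 for those numbered 1, so not every pair deviated together and the numbers were not taken to pair the mice. WT2 correlated best with KO1 (0.41). With the replicate block, Krt7 had a log2 fold change of 1.42 (adjusted p = 0.00861), 580 genes were higher and 217 lower, and the ratio of Krt18 to Krt8 differed by 0.21. Krt8, Krt18, Krt19 and Krt20 had 13 to 100 counts per library, and for Krt8 (KO1 against KO3) and Krt19 (WT1 against WT2) the Poisson intervals of the counts did not overlap within a genotype. Nothing says how the mice were related, so p-values measure the spread between these 6 libraries.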

Other observations

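Beyond Krt7, a keratin below the level of testing was also higher in every library labelled KO. Krt12, the type I keratin of the cornea, had 3, 7 and 15 counts in the WT and 16, 21 and 34 in the libraries labelled KO, and it was singled out after its values were seen. Scaled, these were 0.109, 0.298 and 0.675 CPM against 0.819, 0.690 and 1.56 CPM, so that KO2 and WT3 nearly met.

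Among the 4 keratins that fell, Krt2 of the suprabasal epidermis had the largest change, from 2654 ± 407 to 116 ± 25.5 CPM (log2 fold change -4.52, edgeR's quasi-likelihood adjusted p = 4.02e-05). The other three were Krt36 (-0.95, adjusted p = 0.00555), Krt84 (-0.81, adjusted p = 0.0158) and Krt75 (-0.71, adjusted p = 0.0468), which belong to the hair follicle, nail or tongue. The mucosal keratin Krt76 had 82.8 CPM in WT1 and 0.197 to 2.81 CPM in the other 5 libraries. Elf3 and Sox2 were also highest among the WT in WT1, at 3.52 and 4.28 CPM, while Krt8 (3.19 CPM) and Krt18 (0.762 CPM) were lowest there.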
